A study of Mus musculus with 30 samples.

Results

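Foregut endoderm taken from the mouse embryo was set against endoderm made from embryonic stem (ES) cells in culture. The comparison used 6 of the 30 arrays of the series, chosen by their labels: 3 arrays of foregut endoderm from E8.25 embryos and 3 arrays of ES cells on day 5 of differentiation, all from amplified RNA. The foregut cells came from Swiss webster embryos, were sorted as ENDM1+/Epcam+/SSlo and had their RNA isolated with an RNeasy Micro kit. The ES cells were of the mixed strain C57BL/6x129SvJae, were sorted as ckit+/Sox2dim and had their RNA isolated with a miRNeasy Mini kit. Strain, sort gate and RNA kit therefore differed along with the source of the cells, and their shares in any difference cannot be told apart. No genetic change or drug is named in the labels for either group, and the labels do not give the culture protocol, the sex of the embryos or how many embryos were pooled.

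Another 6 amplified arrays were fitted with these and serve as reference levels. They were 3 arrays of Epcam+/ENDM1neg cells from E8.25 Swiss webster embryos, prepared with the same kit as the foregut, and 3 arrays of undifferentiated ES cells of the same mixed strain on day 0, sorted as Sox2bright and prepared with the miRNeasy kit. Each group was labelled as 3 biological replicates. Where nothing says that these were separate litters or cultures, the p-values measure only the spread between these samples. All RNA was amplified with the WT-Ovation Pico system before hybridisation to 1-colour arrays.

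Definitive endoderm forms from epiblast cells that pass through the primitive streak under high Nodal signalling, with Eomes, Mixl1 and Lhx1 acting early and Sox17, Foxa2, Gata4 and Gata6 marking the endoderm itself. The anterior part folds into the foregut tube, which later gives rise to thyroid, thymus, lung, liver and pancreas, and which is patterned by factors such as Pax9, Tbx1 and Hhex. Visceral endoderm, a separate extraembryonic layer with a large program of secreted and endocytic proteins, mixes with definitive endoderm cells in the gut tube.

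Levels below are log2 values as deposited, and differences are foregut minus ES day 5 on that scale, so that a difference of 1 is 2-fold. Array values are given in the order replicate 1, 2 and 3, a value after ± is the standard error of the difference (n = 3 against 3), and adjusted p is from limma with Benjamini-Hochberg adjustment over 19939 genes. A gene is called higher or lower where that adjusted p was under 0.05. The medians of the 12 arrays lay between 5.69 and 5.74.

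ES day 5 replicate 1 stood apart before any comparison. Its correlation over all genes with each of the other 2 ES day 5 arrays was 0.988, against 0.995 between those and 0.994 to 0.995 among the foregut arrays. At 231 genes it differed by at least 1 from the mean of replicates 2 and 3 where those differed from each other by less than 0.5. Its mean level over the 19 endoderm transcription factors was 7.30, against 6.69 and 6.67 on replicates 2 and 3, and its mean over 28 pluripotency genes was 6.16 against 6.39 on both. Calls that were gained or lost without it are given beside many of the genes and lists concerned, but not all. A gene or list without such a mention may also have changed.

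Of the 19939 genes, 4817 (24.2%) passed the test. The foregut was higher at 2939 of them (14.7% of all genes) and lower at 1878 (9.42%). At least 2-fold differences were fewer and leaned the other way, with 253 genes higher (1.27%) and 358 lower (1.80%). The 3 foregut arrays and the 3 ES day 5 arrays did not overlap at 7997 genes (40.1%), of which 4662 also passed the test. The median difference of all genes was 0.08, and without ES day 5 replicate 1 the counts were 2965 higher and 1963 lower. In these bulk samples, fewer cells of a type and less RNA per cell cannot be told apart.

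**Figure D1:**
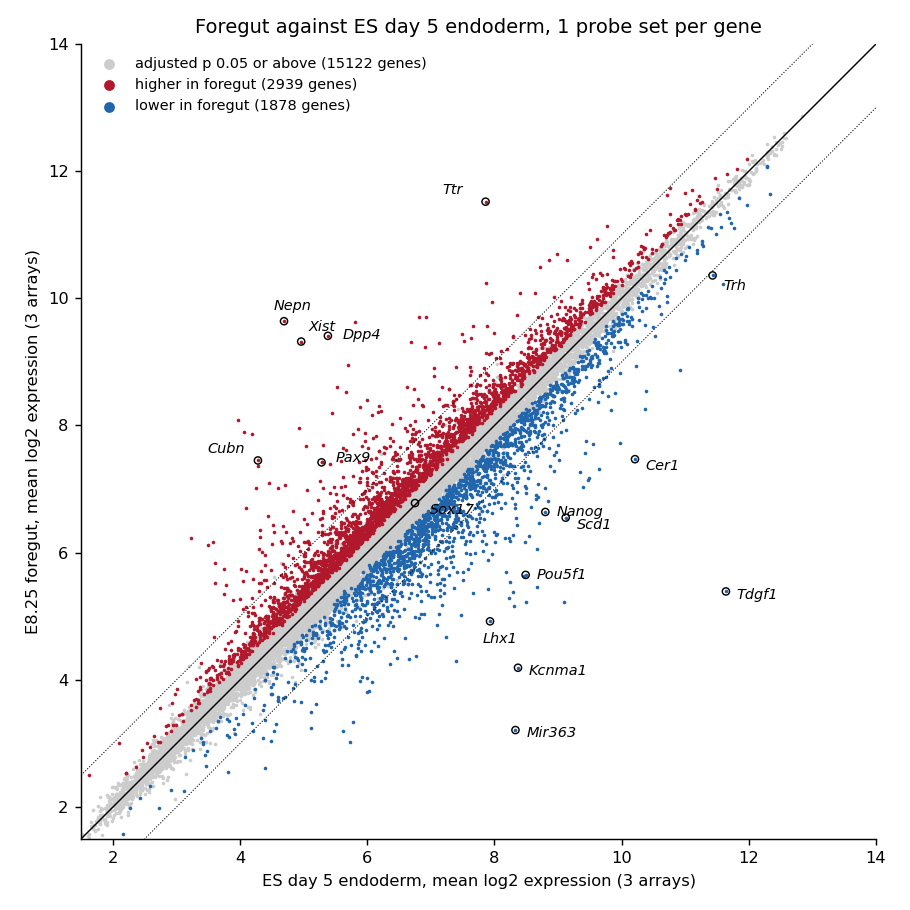
Mean log2 level of each of 19939 genes in ES day 5 endoderm (x axis) against E8.25 foregut (y axis), 3 arrays each, with called genes coloured and some of the genes described here named. Dotted lines mark 2-fold differences. Tdgf1, Mir363 and Kcnma1 lie far below the diagonal and Nepn, Xist and Dpp4 far above it.

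The largest rise of all was of Nepn, which encodes the secreted proteoglycan nephrocan and marks gut endoderm. It was at 9.53, 9.92 and 9.48 in the foregut and 4.96, 4.63 and 4.47 in ES day 5 endoderm. The groups were 4.95 ± 0.21 apart (adjusted p = 2.48e-08, limma), and Epcam+/ENDM1neg embryo cells also held it, at a mean of 8.07. Dpp4, a membrane peptidase, was at 9.26, 9.94 and 9.03 against 5.74, 5.24 and 5.16, a difference of 4.03 ± 0.24, with 6.36 in the ENDM1neg cells. The homeobox cofactors Meis1 and Meis2 were 3.04 ± 0.18 and 3.26 ± 0.11 higher. In the foregut Meis2 was at 8.90, 8.98 and 8.97, and the ENDM1neg cells held the 2 genes at means of 7.65 and 8.98. S100g, a calcium-binding protein, and Tmem54, a membrane protein, rose by 3.82 ± 0.27 and 3.08 ± 0.23.

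Tdgf1, which encodes the Nodal co-receptor Cripto, had the largest fall of all. It was at 6.06, 5.25 and 4.86 in the foregut and 10.99, 11.98 and 11.95 in ES day 5 endoderm, a difference of -6.25 ± 0.41 (adjusted p = 6.48e-07, limma). Undifferentiated ES cells had it at 12.33 and ENDM1neg embryo cells at 5.63, so that day 5 cultures sat near the ES level and both embryo fractions far below it. Kcnma1, a calcium-activated potassium channel, was at 4.11, 4.85 and 3.60 against 8.48, 8.33 and 8.30, and stood at 10.53 in undifferentiated cells. Other large falls were of genes that undifferentiated cells held at low levels. Tph1, the first enzyme of serotonin synthesis outside the brain, was at 5.53, 5.40 and 5.46 against 9.42, 8.09 and 8.49, with 4.69 on day 0. Pga5, a pepsinogen, was at 5.41, 5.34 and 4.90 against 10.39, 8.34 and 8.55, so ES day 5 replicate 1 was about 2 above its partners; the difference was -3.88 ± 0.40 with it and -3.23 without it. The homeobox gene Alx1 was lower by a difference of -3.15 ± 0.26, with 5.12 on day 0. Stmn2, a microtubule regulator best known from neurons, was lower by -2.62 ± 0.12 but stood at 9.50 on day 0.

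Endoderm transcription factors were called in both directions, and the falls were larger than the rises. Of 19 measured endoderm transcription factors, 3 were higher, 5 were lower and 11 did not pass, with a median difference of 0.14 against 0.08 for all genes. The shares of all genes were 14.7% higher and 9.42% lower, and the count of rises is near the first. Of the 5 lower factors, Lhx1, Eomes, Otx2 and Mixl1 are also in the list of streak and epiblast genes, and the other was Foxa2. Sox17, a defining endoderm factor, was at 7.05, 6.62 and 6.66 in the foregut and 7.90, 6.24 and 6.10 in ES day 5 endoderm, so ES day 5 replicate 1 lay above every foregut array and the other 2 below. Its difference was 0.03 ± 0.34 (adjusted p = 0.958, limma), and 0.61 without that replicate (adjusted p = 0.00373). Gata4 had the same arrangement, with a difference of 0.16 ± 0.16 (adjusted p = 0.48) and 0.39 without the replicate. Gata6, at 7.58, 7.76 and 7.10 against 8.35, 7.47 and 7.23, overlapped too, with a difference of -0.20 ± 0.24.

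Foxa2, the pioneer factor of gut endoderm, was at 7.35, 7.20 and 7.33 against 8.20, 7.50 and 7.80, lower in the foregut by a difference of -0.54 ± 0.15 (adjusted p = 0.0203). Without ES day 5 replicate 1 its difference was -0.35 and the call was lost, as it was without foregut replicate 2. Foxa1, its close relative, was higher, at 7.25, 6.94 and 7.15 against 6.46, 5.90 and 6.20, with a difference of 0.93 ± 0.17 (adjusted p = 0.00165). The other 2 rises were of Gata5, by 0.59 ± 0.12, and the nuclear receptor gene Hnf4g, by 0.40 ± 0.08 at a level near the bottom of the scale. Hhex, needed for liver and thyroid buds, was at 9.27, 9.28 and 8.97 against 10.67, 9.46 and 9.45 and did not pass (-0.69 ± 0.28). Leaving out ES day 5 replicate 1 raised the count of higher endoderm factors from 3 to 9 and left 4 lower.

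Lhx1, a homeobox factor of streak and anterior mesendoderm, was at 4.91, 4.95 and 4.89 in the foregut and 8.65, 7.51 and 7.63 in ES day 5 endoderm. It was lower by a difference of -3.01 ± 0.22 (adjusted p = 1.89e-06), and its foregut level was that of undifferentiated cells (4.78) and ENDM1neg cells (4.79). Eomes, the T-box gene that starts the endoderm program, was at 5.65, 5.14 and 5.07 against 8.57, 8.07 and 8.06 (-2.95 ± 0.25). Otx2, an anterior homeobox gene, was at 8.92, 8.54 and 9.15 against 11.22, 10.73 and 10.81 (-2.05 ± 0.19). No foregut array reached the lowest ES day 5 array at any of these genes. Mixl1 was lower by a smaller amount, -0.83 ± 0.17. Of 17 primitive streak and epiblast genes, 7 were lower and 1 was higher: besides Lhx1, Eomes, Otx2 and Mixl1 these were the growth factors Fgf5 (-2.32 ± 0.21) and Nodal, and Cyp26a1, which breaks down retinoic acid. The rise was of Evx1 (0.44 ± 0.12), which did not pass without foregut replicate 1 or without ES day 5 replicate 2, while 2 genes were higher without foregut replicate 2.

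Genes of the pluripotent state were split. Of 28 measured, 6 were lower (Tdgf1 among them), 3 were higher and 19 did not pass, and the median difference was -0.03. Pou5f1, the gene for Oct4, was at 5.74, 5.28 and 5.93 in the foregut and 7.72, 8.92 and 8.82 in ES day 5 endoderm (-2.84 ± 0.32, adjusted p = 6.34e-05). Nanog was at 6.68, 6.39 and 6.86 against 7.80, 9.32 and 9.29 (-2.16 ± 0.32), and Utf1, a chromatin factor of ES cells, at 6.10, 5.89 and 5.96 against 6.92, 8.47 and 8.49 (-1.98 ± 0.34). At all 3 genes ES day 5 replicate 1 was the lowest of its group, yet above every foregut array. Undifferentiated cells held them at 10.33, 10.81 and 9.92. L1td1 and Zscan10 fell by less, -0.91 ± 0.18 and -0.44 ± 0.09. The rises were of Nr5a2 (0.72 ± 0.14), Esrrb (0.51 ± 0.13) and Klf4 (0.47 ± 0.12); the call of Esrrb was lost without ES day 5 replicate 3 and that of Klf4 without foregut replicate 1. Without ES day 5 replicate 1, 9 were lower and 4 higher; Dppa5a, for example, was lower by -1.11. Zfp42, known as Rex1, did not pass, and was at 4.12, 4.10 and 3.62 against 4.16, 3.61 and 3.87, with 8.74 on day 0.

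**Figure D2:**
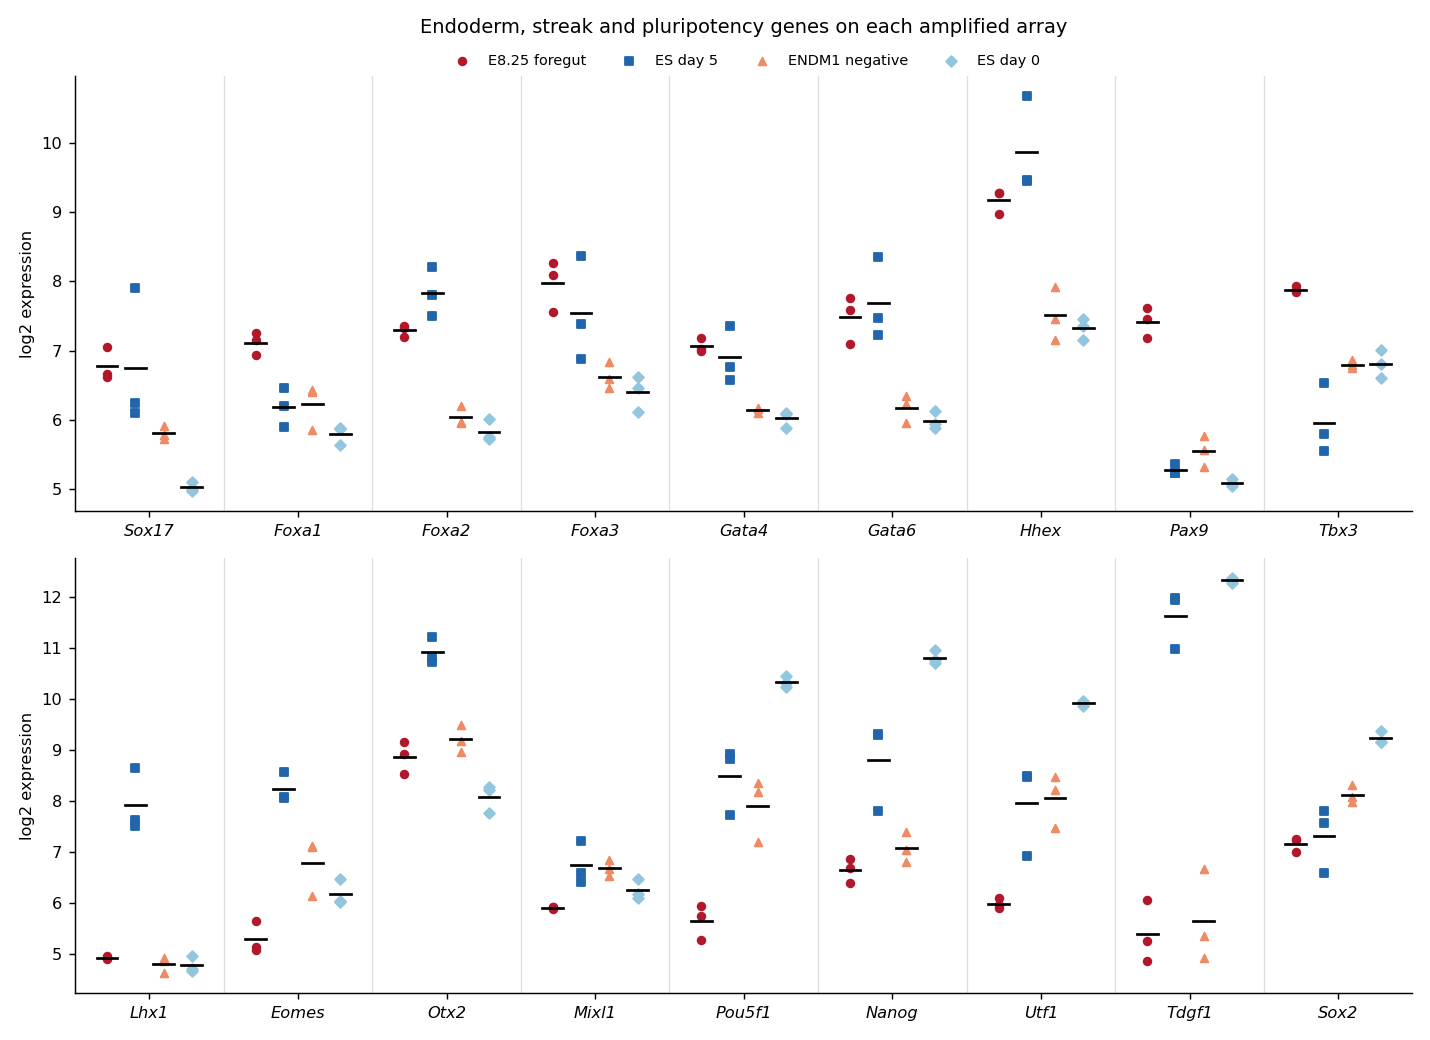
Log2 level of 18 regulatory genes on each of the 12 amplified arrays, with 1 dot for each array, a black bar at the group mean. Lhx1, Eomes and Tdgf1 are high in ES day 5 endoderm and low in foregut, Pax9 and Tbx3 are higher in foregut, and the dots of Sox17, Gata4 and Gata6 overlap.

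Regional factors of the foregut and pharynx moved in 1 direction when they moved. Of 26 measured, 11 were higher, none was lower and 15 did not pass, with a median of 0.33; at an unadjusted p under 0.05 in limma 15 were higher and 0 lower. Pax9, a paired-box gene of the pharyngeal pouches, was at 7.62, 7.18 and 7.45 in the foregut and 5.24, 5.37 and 5.23 in ES day 5 endoderm (2.14 ± 0.12, adjusted p = 3.26e-07). Tbx3, a T-box gene of foregut and liver bud, was at 7.87, 7.84 and 7.93 against 6.53, 5.80 and 5.55 (1.92 ± 0.19). Both were also higher in foregut than in ENDM1neg cells of the same strain and kit, by 1.87 ± 0.12 and 1.08 ± 0.19. The other 9 rises lay between 0.35 and 0.65, and only 4 of the 11 genes were above the median level of all genes. They included Tbx1 (0.65 ± 0.14), which patterns the pharynx, Barx1 (0.48 ± 0.11), a stomach factor, and Pax1 (0.46 ± 0.11), the partner of Pax9 in the pouches.

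Among markers of organs that form later, Nkx2-1 and Pdx1 did not pass with all arrays, whereas Tbx3 and Barx1, given above, did. Nkx2-1, the thyroid and lung factor, was at 5.35, 5.12 and 5.31 against 5.02, 5.12 and 5.11, and Pdx1, the pancreas and duodenum factor, at 5.33, 5.44 and 5.43 against 5.49, 5.09 and 5.07. Neither passed, but without ES day 5 replicate 1 Pdx1 was 0.32 higher (adjusted p = 0.0291, limma). Rfx6, a factor of gut endoderm and endocrine cells, ranged widely, from 6.40 to 7.63 in the foregut and from 6.61 to 9.13 in ES day 5 endoderm, where replicate 1 was the highest array. Without that replicate Prox1, a liver and pancreas factor, was lower (-0.55), the 1 fall in this list.

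Hox genes and Cdx genes, which mark position along the body axis, were higher where they passed, mostly by small amounts at low levels. Of 19 Hox genes of paralogue groups 1 to 7, 14 were higher and 5 did not pass (median 0.51), and 16 were higher and 0 lower at an unadjusted p under 0.05 (limma). Of 21 Cdx and Hox genes of groups 8 to 13, 9 were higher and 12 did not pass (median 0.33), and 13 were higher and 0 lower unadjusted. The levels were low: 15 of the 19 and 18 of the 21 lay below the median of all genes. Cdx4 had the largest difference of both lists, at 6.12, 6.43 and 6.13 in the foregut against 3.38, 3.10 and 3.22 in ES day 5 endoderm, with a 95% interval of the measured difference from 2.71 to 3.28 (adjusted p = 2.59e-08, limma). The ES day 5 values are near the bottom of the scale and carry no detection call, so this is no exact fold. Cdx2, the intestinal homeobox gene, was at 6.03, 6.15 and 6.32 against 5.09, 4.82 and 5.17 (1.14 ± 0.15).

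Hoxb6 rose by 1.06 ± 0.14, Hoxd9 by 1.35 ± 0.13 and Hoxc8 by 1.20 ± 0.15. In the ENDM1neg cells Cdx4 was at 6.43, Cdx2 at 6.73, Hoxd9 at 6.45 and Hoxc8 at 6.19. Between the embryo fractions, foregut was lower at 5 of the 19 anterior genes and at 2 of the 21 posterior ones, Cdx2 (-0.57 ± 0.15) and Hoxc8 (-0.62 ± 0.15), and higher at Hoxd13 (0.49 ± 0.12). Over all genes that contrast called 740 genes higher (3.71%) and 883 lower (4.43%), 1623 in all (8.14%).

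Secreted and surface proteins used as endoderm markers differed in both directions. Of 21 measured, 12 were higher and 6 lower (median 0.56; 13 and 4 without ES day 5 replicate 1), and 17 of the 21 were higher in foregut than in ENDM1neg cells. Ttr, the thyroid hormone carrier transthyretin, was at 11.51, 11.90 and 11.15 in the foregut and 8.56, 7.49 and 7.51 in ES day 5 endoderm (3.66 ± 0.31, adjusted p = 5.01e-06). Pyy, a gut peptide hormone, was at 9.84, 10.07 and 9.90 against 9.30, 6.98 and 7.59, so ES day 5 replicate 1 was close to the foregut and the other 2 were not. Its difference was 1.98 ± 0.44 with that array and 2.65 without it. At Tmprss2, a membrane protease, Cpm, a carboxypeptidase, and Cltrn, collectrin, ES day 5 replicate 1 was again more than 1 above its partners. Cpm was at 9.46, 9.46 and 9.18 against 8.58, 6.94 and 7.38 (1.74 ± 0.29).

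The 4 falls of at least 2-fold in this group were of Cer1, Sfrp1, Cxcr4 and Trh. Cer1, an antagonist that anterior endoderm secretes against Nodal, BMP and Wnt ligands, was at 7.97, 7.47 and 6.97 in the foregut and 10.58, 10.07 and 9.99 in ES day 5 endoderm (-2.75 ± 0.26). Cxcr4, the chemokine receptor widely used to sort endoderm in culture, was at 8.51, 8.64 and 8.23 against 10.51, 9.36 and 9.49 (-1.33 ± 0.23). Trh, the thyrotropin-releasing hormone precursor, was at 10.38, 10.37 and 10.32 against 11.47, 11.48 and 11.34 (-1.08 ± 0.07). All of these except Sfrp1 were nonetheless higher in foregut than in ENDM1neg cells, Trh by 2.55 ± 0.07. Spink1, a trypsin inhibitor, did not pass, at 11.86, 11.94 and 11.56 against 11.88, 11.27 and 11.39, and was 0.46 higher without ES day 5 replicate 1 (adjusted p = 0.0461, limma).

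Genes of visceral endoderm and yolk sac secretion were higher in the foregut more often than those of any other list here. Of 22 measured, 18 were higher, none was lower and 4 (Alb, Apoe, Lrp2 and Tdo2) did not pass, and 15 of the 18 were at least 2-fold higher; the median was 1.53, and at an unadjusted p under 0.05 in limma 18 were higher and 0 lower. Afp, the fetal serum carrier alpha-fetoprotein, was at 7.96, 8.77 and 6.84 in the foregut and 4.20, 4.16 and 4.17 in ES day 5 endoderm (3.68 ± 0.32, adjusted p = 7.89e-06). Cubn, the endocytic receptor cubilin, was at 7.34, 8.85 and 6.17 against 4.37, 4.25 and 4.24 (3.17 ± 0.52). Apoa2, an apolipoprotein, was at 9.85, 10.54 and 8.75 against 6.80, 7.24 and 6.72 (2.79 ± 0.43). In each case all foregut arrays lay above all ES day 5 arrays, and the foregut arrays themselves were far apart.

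That spread had mostly the same order, which was taken from these values. Foregut replicate 2 was the highest and replicate 3 the lowest of the group at 19 of the 22 visceral endoderm genes (86.4%), against 11.9% of all genes. The same order was seen at 8 of the 21 secreted and surface endoderm markers (38.1%) and 2 of the 14 blood genes (14.3%). The mean level of the 22 genes was 7.20, 7.84 and 6.79 on the 3 foregut arrays, 5.84, 5.63 and 5.64 in ES day 5 endoderm, and between 5.61 and 6.05 in ENDM1neg cells. Of the same 22 genes, 17 were higher in foregut than in ENDM1neg cells. The ENDM1 gate is a surface marker on endoderm, and how many visceral endoderm cells it lets through is not given in the labels. Their part in the differences was not tested. Dab2, an endocytic adaptor, had a mean of 9.05 in the ENDM1neg cells, beside 9.53, 10.27 and 9.29 in the foregut and 6.77, 6.83 and 6.82 in ES day 5 endoderm.

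Promoters of these genes were searched for GTTAAT, the core of the binding site of the HNF1 factors, which drive many liver and yolk sac genes. The letters were found on either strand in 7 of the 20 visceral endoderm genes with a promoter entry (Afp, Alb, Apoe, Dab2, Fga, Fgb and Habp2), against 8.24% of 27025 genes. These 7 include Alb and Apoe, which did not pass. The match is a description of the sequence, not of a bound site. The stretches around it in Afp, at chr5:90490582-90490641, and Dab2, at chr15:6386656-6386715 (RefSeq, GRCm38.p6, plus strand, 5′ to 3′), are shown because these genes had large differences, with the match in capitals.
Afp: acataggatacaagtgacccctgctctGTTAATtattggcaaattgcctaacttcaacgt
Dab2: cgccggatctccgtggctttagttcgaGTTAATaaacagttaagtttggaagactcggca

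Markers of other embryo tissues were called in both directions, and the largest rises among them were of embryonic globins. Surface ectoderm genes went 1 way: of 16, 7 were higher and none lower (median 0.26), with 5 to 7 higher when 1 array was left out. In ENDM1neg cells, 11 of these 16 were higher than in ES day 5 endoderm. That contrast called 5236 of the 19939 genes, both directions counted. Over all genes 14.7% were higher in foregut than in ES day 5 endoderm and 9.42% lower. Of 14 blood genes, 5 were higher and 1 was lower; Hbb-bh1, an embryonic beta-like globin, was at 7.84, 8.19 and 8.20 in the foregut against 4.08, 3.89 and 3.95 in ES day 5 endoderm (4.10 ± 0.16). Hba-x, an embryonic alpha-like globin, was 2.76 ± 0.22 higher and Hbb-y 1.74 ± 0.42 higher. Ptprc and Lyl1 made up the 5. Without foregut replicate 1 or ES day 5 replicate 3 neither was called; Ptprc was not called without foregut replicate 2 or ES day 5 replicate 1 either, nor Lyl1 without foregut replicate 3 or ES day 5 replicate 2. Runx1, a blood stem cell factor, was lower (-1.15 ± 0.14). The globins were also present in ENDM1neg cells, Hbb-bh1 at 7.47. Over the 14 blood genes the mean level was 5.97 to 6.07 in the foregut, 5.34 to 5.50 in ES day 5 endoderm and 5.79 to 6.08 in ENDM1neg cells, and the part of blood cells in any result was not tested.

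Over 17 endothelial genes the mean was 5.43 to 5.54 in the foregut, 5.31 to 5.32 in ES day 5 endoderm and 6.19 to 6.65 in ENDM1neg cells; Tek, Cdh5 and Esam were higher in foregut than in ES day 5 endoderm (Esam not without foregut replicate 1, foregut replicate 2 or ES day 5 replicate 1) and Flt1, a VEGF receptor, was lower (-1.48 ± 0.33). Of 20 neural genes, 1 was higher (Hes5, a call kept only when foregut replicate 2 was the array left out) and 3 were lower (Fabp7, Hesx1 and Nes, the last not without foregut replicate 2 or ES day 5 replicate 3). The largest fall was of Fabp7, a fatty acid binding protein of neural progenitors, at 5.24, 4.96 and 6.69 against 7.35, 9.10 and 8.92, and the next of Hesx1, an anterior homeobox gene (-1.93 ± 0.25). Of 20 heart and lateral mesoderm genes, 4 were higher and 4 lower, with the cardiac actin Actc1 lower by the most (-1.34 ± 0.20). Without foregut replicate 1, 2 were lower. Over all genes 14.7% were higher and 9.42% lower, and the endothelial, neural and heart counts should be read beside those shares.

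**Figure D3:**
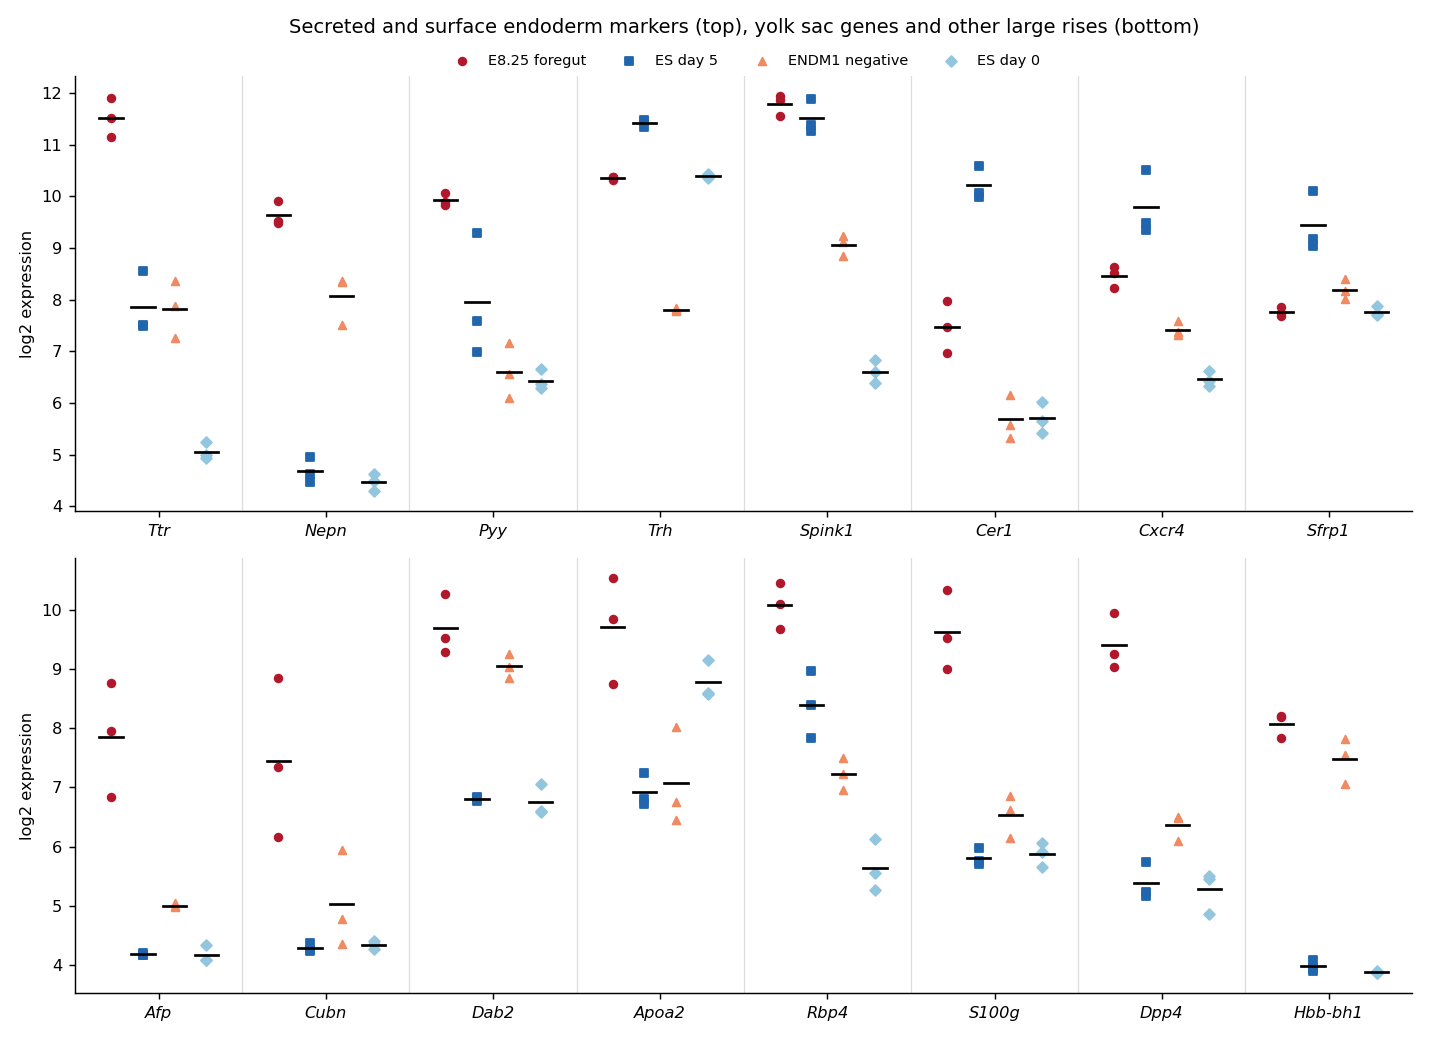
Log2 level of 16 genes, most of them secreted, surface or visceral endoderm genes, on each of the 12 amplified arrays, with 1 dot for each array and a black bar at the group mean. Afp, Cubn and Apoa2 are spread over more than 1.5 log2 units among the foregut arrays, while Cer1 and Cxcr4 are highest in ES day 5 endoderm.

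The ligand Nodal, both its co-receptors and both Lefty inhibitors were lower in the foregut. Of 21 genes of the Nodal and activin pathway, 8 were lower and 4 higher (median -0.13), and foregut and ENDM1neg cells differed at 1 of them, Cer1. Nodal itself was at 5.66, 5.97 and 5.82 in the foregut and 6.61, 6.46 and 6.37 in ES day 5 endoderm (-0.66 ± 0.11, adjusted p = 0.000851). The co-receptors Tdgf1 and Cfc1 were both lower; Cfc1 was at 6.27, 6.25 and 6.16 against 8.53, 8.11 and 8.05 (95% interval of the difference -2.28 to -1.72). Lefty1 and Lefty2, inhibitors that Nodal signalling itself induces, were lower by -2.48 ± 0.23 and -1.48 ± 0.27. Foxh1, the DNA-binding partner of the activated Smads, and the receptor gene Acvr1b were lower by -0.73 ± 0.17 and -0.68 ± 0.17.

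The rises in that pathway were of Inhbb, an activin subunit (0.67 ± 0.15), Pcsk6, a convertase that cleaves the Nodal precursor (0.66 ± 0.09), and the receptors Acvr2b (0.41 ± 0.11) and Acvr2a (0.30 ± 0.09). The call of Acvr2b was lost without foregut replicate 1, and that of Acvr2a without any 1 of foregut replicates 2 and 3 and ES day 5 replicates 2 and 3. The transducers Smad2, Smad3 and Smad4 did not pass, with differences of -0.13, 0.19 and -0.14.

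In the BMP pathway, 8 of 23 genes were higher and 2 lower (median 0.33). Bmp2 was at 7.47, 7.27 and 7.06 in the foregut and 9.68, 9.09 and 9.27 in ES day 5 endoderm (-2.08 ± 0.15, adjusted p = 1.51e-06), whereas Bmp4 and Bmp7 were higher by 0.55 ± 0.17 and 0.50 ± 0.13. Both calls were lost without foregut replicate 1, that of Bmp4 also without foregut replicate 3 or ES day 5 replicate 1, and that of Bmp7 also without ES day 5 replicate 2 or 3. Among genes that BMP signalling induces in many tissues, those called higher were Id2, at 9.57, 9.83 and 9.81 against 8.77, 8.19 and 8.14 (1.38 ± 0.16), Msx2 (1.11 ± 0.09), Id4 (0.74 ± 0.09) and Msx1 (0.67 ± 0.08). Id1, Id3 and Smad6 did not pass: Id1 was at 9.39, 9.11 and 9.25 against 9.15, 8.94 and 9.04, and the differences of Id3 and Smad6 were 0.42 ± 0.15 and 0.33 ± 0.13. Smad1, a BMP transducer, was lower (-0.72 ± 0.14).

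Of 34 Wnt ligands, receptors and antagonists, 10 were higher and 6 lower, with antagonists on both sides. Sfrp1, a secreted Wnt antagonist, was at 7.75, 7.68 and 7.86 in the foregut and 10.10, 9.04 and 9.18 in ES day 5 endoderm (-1.68 ± 0.21). Cer1 was given above, and Dkk1 was -0.65 ± 0.19 lower, a call that was lost without foregut replicate 1 or 3 and without ES day 5 replicate 1, where the difference was -0.40. Frzb and Dkk3 were antagonists on the higher side (0.52 ± 0.13 and 0.66 ± 0.15), with the call of Frzb lost without foregut replicate 3 and without ES day 5 replicate 2. Among receptors, Fzd4 was higher, at 6.76, 6.80 and 6.93 against 5.30, 5.13 and 5.21 (1.61 ± 0.13), and Fzd5 lower (-1.03 ± 0.13).

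Of 12 genes known as targets of Wnt signalling, 6 were higher and 1 was lower (median 0.48). Sp5 was at 6.87, 7.04 and 6.85 against 5.24, 5.46 and 5.84 (1.40 ± 0.16), and Axin2, a feedback inhibitor and common reporter of the pathway, at 6.94, 6.86 and 6.76 against 6.04, 6.30 and 6.09 (0.71 ± 0.08). Tnfrsf19, Ccnd1, Nkd1 and Rnf43 rose by 1.06, 1.02, 0.75 and 0.63. The fall was of Lgr5, a receptor of Wnt-enhancing R-spondins, by -1.05 ± 0.25. Axin2 was higher still in the ENDM1neg cells, at 7.33.

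Of 16 genes of retinoic acid synthesis, breakdown and binding, 6 were higher, 1 was lower and 9 did not pass (median 0.24). Cyp26a1, which breaks retinoic acid down, was the fall, at 6.34, 6.15 and 6.31 in the foregut and 8.17, 7.63 and 7.69 in ES day 5 endoderm (-1.57 ± 0.19, adjusted p = 9.97e-05). The receptor gene Rarb, itself induced by retinoic acid, was at 8.81, 8.79 and 8.98 against 8.37, 7.22 and 7.29 (1.23 ± 0.24, and 1.60 without ES day 5 replicate 1). The binding proteins Crabp1 and Crabp2 were higher by 1.95 ± 0.24 and 1.74 ± 0.19, and both were higher again in the ENDM1neg cells, at 11.25 and 11.39. The synthesis enzyme Aldh1a1 rose by 1.20 ± 0.14, while Aldh1a2, the main enzyme of the early embryo, did not pass, at 5.48, 4.93 and 5.48 against 5.01, 5.02 and 5.09, nor did Aldh1a3 (0.19 ± 0.13). Rbp4 and Stra6, the carrier of retinol and its receptor, rose by 1.68 ± 0.29 and 0.57 ± 0.10.

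Of 25 FGF genes, 6 were higher and 4 lower, beside 14.7% and 9.42% of all genes. The rises included the receptors Fgfr1, Fgfr2 and Fgfr4, and the falls were led by Fgf5. Without foregut replicate 1, foregut replicate 2 or ES day 5 replicate 3, 2 were lower. Fgfr4, a receptor of endoderm, was at 6.06, 5.96 and 5.99 in the foregut and 5.08, 5.10 and 5.33 in ES day 5 endoderm (0.84 ± 0.09). Of 15 hedgehog genes, 4 were higher, with Gli3, a transcription factor of the pathway, in front (1.15 ± 0.21), and Cdon was lower, a call lost without foregut replicate 1 or 3 or ES day 5 replicate 3. The ligand Shh did not pass, at 5.97, 5.77 and 6.01 against 5.54, 5.90 and 5.66, nor did the target Ptch1 (-0.09 ± 0.21).

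Chemotaxis and guidance genes held some of the larger differences. Of 39 ephrins, semaphorins, Slits, netrins and their receptors, 13 were higher and 6 lower, 6 and 5 of them by at least 2-fold, and 13 and 9 were called without ES day 5 replicate 1. Robo2, a receptor for Slit proteins, was at 8.58, 8.76 and 8.24 in the foregut and 5.43, 5.76 and 5.81 in ES day 5 endoderm (2.86 ± 0.16, adjusted p = 2.32e-07), and its ligand gene Slit2 was at 6.69, 6.55 and 7.38 against 7.99, 8.98 and 9.10 (-1.82 ± 0.28). Nrp1, a receptor of semaphorins and VEGF, was at 8.45, 8.99 and 8.38 against 7.86, 5.94 and 6.07; its difference was 1.98 ± 0.37 with ES day 5 replicate 1 and 2.60 without it. Epha4, an ephrin receptor, rose by 1.43 ± 0.13 and Epha7, its relative, fell by a difference of -1.79 ± 0.13. Sema6d and Sema3e, both semaphorin ligands, were lower by -2.02 ± 0.35 and -1.61 ± 0.34, with ES day 5 replicate 1 the highest array for the first and the lowest of its group for the second.

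The ligand of the gate receptor and that of Cxcr4 were looked up after their values had been seen. Cxcl12, the ligand of Cxcr4, was at 7.53, 7.62 and 7.13 in the foregut and 5.11, 5.39 and 5.38 in ES day 5 endoderm (2.13 ± 0.14), and Kitl, the ligand of Kit, was 2.41 ± 0.19 higher. The genes of the gates are no findings. Kit was at 8.89, 8.73 and 8.69 against 9.02, 7.39 and 7.73, Epcam at 9.36, 9.36 and 9.35 against 9.22, 8.92 and 8.80, and Sox2 at 6.99, 7.24 and 7.25 against 6.58, 7.80 and 7.57. Undifferentiated cells, gated as Sox2bright, had Sox2 at 9.23.

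Epithelial and basement membrane genes that passed were all higher in the foregut. Of 20 laminin, collagen and related genes, 12 were higher and none lower (median 0.39; unadjusted in limma, 15 and 0). Lama1, the laminin chain of the earliest basement membranes, was at 7.57, 7.78 and 7.48 in the foregut and 5.84, 5.43 and 5.75 in ES day 5 endoderm (1.94 ± 0.11, adjusted p = 2.66e-07). The paired collagen chains Col4a1 and Col4a2 rose by 0.95 ± 0.10 and 0.84 ± 0.09, and Agrn, a heparan sulphate proteoglycan, by 0.80 ± 0.13. Of 24 junction and keratin genes, 13 were higher and none lower (median 0.42; unadjusted in limma, 17 and 0). Cldn8, a tight junction protein, was at 6.10, 6.71 and 6.45 against 5.08, 4.44 and 4.50 (1.74 ± 0.17), and Dsg2, a desmosomal cadherin, rose by 1.32 ± 0.17.

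That junction count rested on single arrays: it was 20 without ES day 5 replicate 1, 7 without replicate 2 or replicate 3 of ES day 5, and 8 without foregut replicate 1. Among cadherins and genes of the mesenchymal transition, 4 of 14 were higher and 6 lower. Cdh3, placental cadherin, was at 7.90, 7.61 and 7.99 against 6.08, 6.07 and 6.24 (1.71 ± 0.11), and Fn1, fibronectin, at 10.79, 10.79 and 10.85 against 9.65, 9.41 and 9.44 (1.31 ± 0.09). Cdh2, neural cadherin, was lower (-1.41 ± 0.18), as was Zeb2, a repressor of epithelial genes, at 4.96, 4.89 and 5.16 against 5.64, 6.77 and 7.08 (-1.49 ± 0.27). Without ES day 5 replicate 2 or 3 the lower count was 3. Cdh1, epithelial cadherin, was not called, at 9.65, 9.65 and 9.68 against 10.08, 9.14 and 9.28, and was 0.44 higher without ES day 5 replicate 1 (adjusted p = 0.00203, limma).

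Of 20 cholesterol synthesis genes, 11 were lower in the foregut, none was higher and 9 did not pass (median -0.38), and 14 and 1 at an unadjusted p under 0.05 in limma. Without ES day 5 replicate 1, 8 were lower and 1 higher. Msmo1, a sterol oxidase, was at 7.45, 7.52 and 7.40 in the foregut and 9.40, 8.72 and 8.96 in ES day 5 endoderm (-1.56 ± 0.15, adjusted p = 1.8e-05). Hmgcs1, the enzyme that makes the precursor of mevalonate, was at 9.47, 9.25 and 9.52 against 10.77, 10.37 and 10.41 (-1.10 ± 0.11). Between foregut and ENDM1neg cells none of the 20 passed in limma, and 1 was higher and 1 lower unadjusted. The mean level of the list was 7.50 to 7.52 in the foregut, 7.46 to 7.62 in ENDM1neg cells, 7.98 to 8.05 in undifferentiated cells and 7.75 or more in ES day 5 endoderm, where replicate 1 was the highest.

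The sterol regulatory element TCACNCCAC, the site of the SREBP factors, was found in the promoter of 1 of the 16 cholesterol genes with an entry, Hmgcs1, against 1.44% of 27025 genes. Its stretch, at chr13:119690188-119690247 (RefSeq, GRCm38.p6, plus strand), is shown because this gene had the second largest fall of the list, with the match in capitals.
Hmgcs1: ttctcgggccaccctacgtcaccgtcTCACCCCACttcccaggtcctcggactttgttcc

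Among fatty acid genes, 5 of 15 were lower and 1, Fasn, was higher, a call lost without any 1 of foregut replicates 1 and 3 and ES day 5 replicates 2 and 3. Scd1, a desaturase, was at 6.18, 6.97 and 6.51 in the foregut against 9.55, 8.75 and 9.06 in ES day 5 endoderm (-2.57 ± 0.21), and 8.29 in ENDM1neg cells. Among targets of p53, 10 of 17 were lower and none higher (median -0.59; unadjusted in limma, 11 and 0). Trp53inp1, a stress protein that promotes cell death, was at 7.91, 7.87 and 7.37 against 9.21, 9.71 and 9.72 (-1.83 ± 0.16). Ccng1, a cyclin G induced by p53, was lower by -1.85 ± 0.15. Undifferentiated cells had Ccng1 at 10.82 and Trp53inp1 at 9.60.

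Of 34 cell cycle and replication genes, 18 were higher in the foregut, 1 was lower and 15 did not pass (median 0.30), with 2 lower without foregut replicate 2. Ccne1, a cyclin of S phase entry, was at 8.53, 8.45 and 8.46 against 7.34, 7.33 and 7.43 (1.12 ± 0.08), and the inhibitor Cdkn1b was the fall (-1.09 ± 0.17). The inhibitor Cdkn1c rose by 1.68 ± 0.12. ENDM1neg and undifferentiated cells held Ccne1 at 8.87 and 8.86. Of 26 immediate early and heat shock genes, which respond within minutes to stimuli that include handling of cells, 14 were higher, 1, Btg2, was lower and 11 did not pass, with 11 higher and 2 lower without ES day 5 replicate 1. Fosb was at 7.53, 7.52 and 7.27 against 5.52, 5.59 and 5.63 (1.86 ± 0.13) and Egr1 at 7.63, 7.64 and 7.21 against 6.39, 6.00 and 6.00 (1.36 ± 0.14). Their levels in the ENDM1neg cells (7.67 and 7.44) and in undifferentiated ES cells (7.71 and 7.34) were near those of the foregut, so ES day 5 endoderm was the low group of the 4.

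Stress and amino acid genes were mixed. Of 26 genes of amino acid starvation and the unfolded protein response, 8 were higher and 5 lower, and 4 or 5 were higher without foregut replicate 2, ES day 5 replicate 2 or ES day 5 replicate 3. Asns, asparagine synthetase, was at 8.97, 8.91 and 8.94 in the foregut and 10.21, 10.18 and 10.26 in ES day 5 endoderm (-1.28 ± 0.08), and Slc7a3, an arginine transporter, fell by a difference of -2.28 ± 0.19. Metallothioneins Mt1 and Mt2 were lower by -1.14 ± 0.14 and -0.94, and Gpx3, a secreted glutathione peroxidase, was higher, at 7.82, 7.85 and 7.74 against 5.97, 6.27 and 6.03 (1.71 ± 0.11). Of 33 respiratory chain subunits, 4 were higher and 1 was lower (median 0.01), and the higher count was 1 or 2 without foregut replicate 1, foregut replicate 3, ES day 5 replicate 2 or ES day 5 replicate 3. These counts and those of the amino acid genes should be read beside 14.7% of all genes higher and 9.42% lower.

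**Figure D4:**
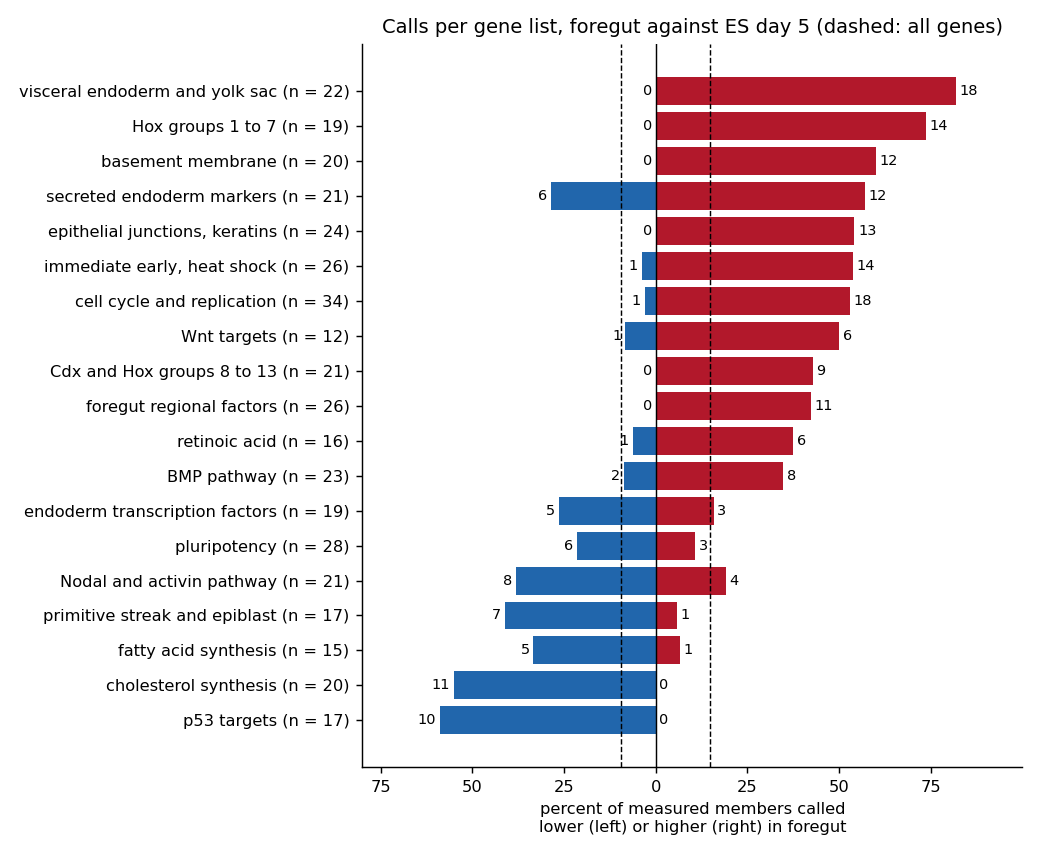
Percent of the measured genes of each list that were called higher (bars to the right) or lower (bars to the left) in foregut than in ES day 5 endoderm, with the number measured beside each name. Dashed lines mark the shares of all genes, 14.7% higher and 9.42% lower. The visceral endoderm and anterior Hox lists reach furthest to the right, and the p53 and cholesterol lists furthest to the left.

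Imprinted genes, which are expressed from 1 parental copy, were more often higher than lower, as were all genes (14.7% higher and 9.42% lower). Of 23 paternally expressed genes, 6 were higher and 1, Zdbf2, was lower, at 8.10, 8.29 and 8.35 in the foregut and 9.78, 9.88 and 9.83 in ES day 5 endoderm (-1.58 ± 0.12). Slc38a4, an amino acid transporter, was at 9.57, 9.58 and 9.51 against 7.90, 7.58 and 7.54 (1.88 ± 0.12). After a further quantile normalization 11 were higher, and without ES day 5 replicate 1, 3 were lower. Of 18 maternally expressed genes, 6 were higher and 1, Copg2, was lower, a call lost without ES day 5 replicate 3, while 2 were lower without foregut replicate 2. Phlda2, a growth-restraining gene of placenta, was at 9.17, 9.49 and 9.06 against 6.98, 6.66 and 7.07 (2.34 ± 0.26), and Igf2r, the receptor that clears IGF2, rose by 0.95. Dnmt3b, a de novo DNA methyltransferase, was at 8.18, 8.21 and 8.21 against 9.43, 9.13 and 9.24 (-1.06 ± 0.09).

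Sex-linked genes separated the groups. Xist, the RNA of the inactive X chromosome, was at 9.13, 9.57 and 9.27 in the foregut and 4.69, 4.94 and 5.25 in ES day 5 endoderm (4.36 ± 0.14, adjusted p = 3.62e-09), with 9.04 in ENDM1neg cells and 7.13 in undifferentiated cells. The Y-linked genes Eif2s3y and Uty were lower, Eif2s3y at 6.99, 7.04 and 7.14 against 8.55, 8.38 and 8.52 and Uty by a difference of -1.38 ± 0.10. Kdm5d, also on the Y, went the other way, at 7.34, 7.46 and 7.29 against 3.90, 4.46 and 4.49 (3.08 ± 0.13), and 7.12 in ENDM1neg cells. The strains differ between the groups, and the part of strain differences under the probes was not tested.

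The second largest fall of all genes was of a miRNA gene. Of 341 small nucleolar, Cajal body and microRNA (miRNA) genes, 18 were higher, none of them by 2-fold, and 48 were lower, 27 by at least 2-fold. The shares of all genes were 14.7% higher and 9.42% lower, and 1.27% and 1.80% by at least 2-fold. Of the 341, 238 lay below the median level of all genes. At or above it lay 7 of the 18 higher genes and 28 of the 48 lower ones. The higher count was 10 without foregut replicate 1, 29 without foregut replicate 2 and 44 after quantile normalization. Mir363 and Mir302a had the largest falls; the other small RNA genes named here were chosen after their values were seen. miRNAs silence mRNAs through the seed, bases 2 to 8, which is in capitals below (RefSeq, GRCm38.p6, 5′ to 3′). They are the mature forms of miRNA genes described here, shown so that their seeds can be compared.
miR-302b-3p: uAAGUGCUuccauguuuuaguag
miR-302d-3p: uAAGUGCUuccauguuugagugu
miR-302c-3p: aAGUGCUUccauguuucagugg
miR-367-3p: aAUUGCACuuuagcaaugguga
miR-363-3p: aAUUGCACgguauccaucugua
miR-92a-3p: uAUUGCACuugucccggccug
miR-218-5p: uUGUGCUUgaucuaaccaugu

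miR-302b and miR-302d share the seed AAGUGCU, and miR-367, miR-363 and miR-92a share AUUGCAC. The seed of miR-218 is shared with no other sequence shown. By position, neither is that of miR-302c, AGUGCUU. However, the printed miR-302c begins with AAGUGCU, the same letters that follow the opening u of miR-302b and miR-302d. Its seed therefore differs from theirs only through where the printed sequence starts, and a difference in targets was not tested. The hairpins of Mir302a, Mir302b, Mir302c, Mir302d and Mir367, best known from pluripotent cells and early endoderm, lie within 580 bases at chr3:127545228-127545807 on the plus strand, inside the span of the gene Larp7. The hairpin of Mir363 lies with those of Mir92-2, Mir19b-2, Mir20b and Mir106a within 875 bases at chrX:52741693-52742567 on the minus strand, and no other listed gene spans them. Mir218-1 lies inside Slit2 on chromosome 5. Whether a probe set reads the mature miRNA, its hairpin or the longer transcript is not given in the sources used here.

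Mir363 was at 2.64, 3.36 and 3.62 in the foregut and 7.08, 9.23 and 8.69 in ES day 5 endoderm (-5.12 ± 0.46, adjusted p = 8.82e-06). All foregut arrays were near the bottom of the scale, ES day 5 replicate 1 was the lowest of its group, and without it the difference was -5.75. The rest of its cluster was low throughout. Mir19b-2 was lower, at 3.14, 3.08 and 3.39 against 4.13, 4.12 and 4.37. Mir20b was lower by -0.58 ± 0.19, a call kept only when ES day 5 replicate 1 was the array left out, whereas Mir92-2 (-0.23 ± 0.13) and Mir106a (-0.62 ± 0.22) did not pass. Without ES day 5 replicate 1 both were called lower, by -0.37 and -0.89. Undifferentiated cells had Mir363 at 8.33 and ENDM1neg cells at 4.99, and it was lower in foregut than in ENDM1neg cells, which shared its kit, by -1.78 ± 0.46 (adjusted p = 0.0315).

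Every hairpin of the chromosome 3 cluster was lower. Mir302a was at a mean of 3.03 in the foregut (SD 0.05, n = 3) against 5.62, 6.06 and 5.51 in ES day 5 endoderm, with a difference of -2.70 ± 0.16 (adjusted p = 4.71e-07, limma). Mir367 was at 3.49, 3.55 and 2.98 against 4.80, 6.43 and 6.08 (-2.43 ± 0.33). Mir302c and Mir302d were lower by -1.90 ± 0.35 and -1.30 ± 0.17. Mir302b was lower by -1.26 ± 0.39, a call lost when any 1 of foregut replicates 1 and 3 and ES day 5 replicates 1, 2 and 3 was left out. Undifferentiated cells, prepared with the same kit as ES day 5 endoderm, had Mir302a at 4.07 and Mir367 at 4.88. Larp7, whose span holds the cluster, did not pass (-0.29 ± 0.12), but was called lower in 3 alternatives: by -0.46 without ES day 5 replicate 1 (adjusted p = 0.00278, limma), by -0.41 with the mean of its probe sets and by -0.52 with the probe set of largest spread.

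Mir218-1 was at 4.27, 4.20 and 4.64 in the foregut and 5.78, 7.12 and 7.40 in ES day 5 endoderm (-2.39 ± 0.34), lower alongside its host gene Slit2. Its copy Mir218-2 lies in Slit3. Mir218-2 was higher by 0.32 ± 0.11, a call kept only when foregut replicate 2 was the array left out, and Slit3 was at 6.87, 6.84 and 6.91 against 6.57, 7.02 and 7.11. Mir218-1 stood at 4.56 in undifferentiated cells, which were also prepared with the miRNeasy kit. Snord52, a small nucleolar RNA gene, was at 5.58, 6.15 and 6.35 against 8.06, 7.78 and 7.63 (-1.79 ± 0.18), and at 8.36 in undifferentiated cells and 6.46 in ENDM1neg cells, so that both miRNeasy groups were above both RNeasy Micro groups. For these genes, as for small RNA genes as a class, the part of the kit was not tested. It cannot be told apart from the source of the cells.

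**Figure D5:**
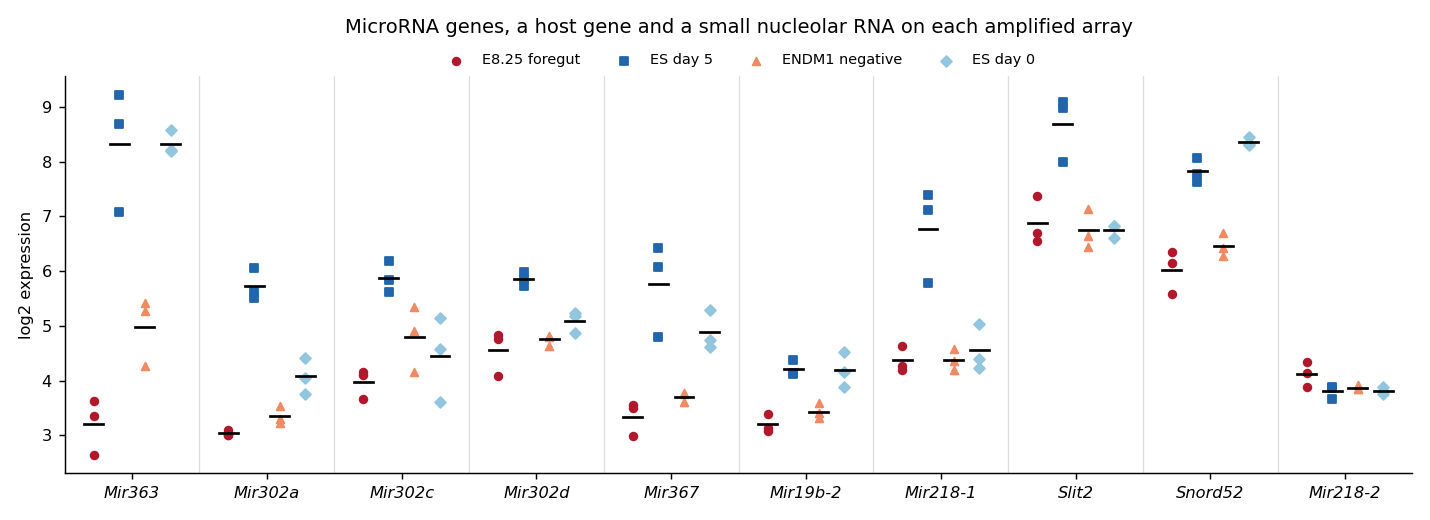
Log2 level of 8 miRNA genes, the host gene Slit2 and Snord52 on each of the 12 amplified arrays, with 1 dot for each array and a black bar at the group mean. Every ES day 5 array is above all other arrays at Mir302a and Mir218-1, while Mir363 and Snord52 are high on day 0 as well.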

How the data were processed

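RNA of 12 amplified samples in 4 groups of 3 was measured on Affymetrix mouse gene arrays; the 18 arrays of unamplified RNA entered an alternative fit and the choice of probe sets. The deposited values are log2 expression summarised by RMA, per the submitters' processing notes; the RMA version and whether all 30 arrays were processed together are not given in the sources used here. Of 35556 probe sets, 21789 named 1 gene, 1621 several and 12146 were not listed; 99.6% of the former matched RefSeq symbols. A gene with several probe sets (998 genes) was represented by its brightest, judged by the mean of the 30 arrays, giving 19939 genes.

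limma 3.58.1 (R 4.3.3; lmFit, eBayes, two-sided, 8 residual degrees of freedom) was fitted to the 12 arrays without a block, and p-values were adjusted by Benjamini-Hochberg over all genes. It was tested on simulated data with known differences. The values carry no detection call, so differences from levels near the bottom of the scale are no exact folds. The number of arrays limits the precision. Genes were named from a pool, and not all of the pool is given here. It held the 15 largest differences each way among called genes whose foregut and ES day 5 arrays did not overlap. Provisional symbols and families such as olfactory receptor and small RNA genes were left out of these. The pool also held all members of the main lists. From other lists it held the 4 largest called members each way, beside the ligands, receptors and inhibitors of the pathways, and from pattern lists 2 each way. Smad2, Smad3, Smad4, Id1, Id3, Smad6, Msx1, Axin2, Rnf43, Aldh1a1, Aldh1a2, Aldh1a3, Cdh1, Larp7, Cxcl12, Kitl and further small RNA genes were named after their values were seen. The 48 lists, their members and the comparison were chosen with earlier results of these data known. Alternatives were the arrays fitted, further normalization, the probe set rule, a filter on dim genes, a size threshold, a trend, a replicate block and each array left out.

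Between foregut and ES day 5 arrays, same-numbered deviations from the group means correlated at 0.02, -0.06 and 0.06. Whether replicate numbers pair the foregut with the ENDM1neg arrays was not checked, and that contrast was fitted unpaired. Promoters were the RefSeq stretches around each gene start.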

Additional observations from a re-analysis of the deposited data

How the results depend on the processing

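The count of called genes was 4817, and other settings gave 3747 with the 6 arrays alone (2218 higher, 1529 lower), 5966 with all 30 arrays and 3958 of 9970 genes with dim genes left out. With a difference of at least 2-fold also required, 611 genes were called, 253 higher and 358 lower, so that the share of higher calls was 41.4% against 61.0%. A further quantile normalization called 4240 higher and 1709 lower (71.3% higher) and moved the median of all genes from 0.08 to 0.13; a common median gave 3459 and 1755. Small rises, such as most Hox genes, should be read against that shift. Leaving out 1 array gave 3381 to 4928 calls, 1960 to 2965 higher and 1421 to 1963 lower. The replicate block called 4553 genes (2732 higher, 1821 lower); the shared numbers are no evidence of pairing. A wider set held every member of the lists outside the pattern lists, the largest differences and some further genes. Of its 399 called genes, 306 were called with every array left out in turn. That is not the share of the genes described above. Higd1a, a hypoxia gene, did not pass at -0.26 and was 0.73 higher (adjusted p = 0.00329, limma) with the probe set of largest spread. Strain, gate and kit differ with the groups in every setting, and 3 arrays a group leave small differences near the threshold.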
